A study of Mus musculus with 2 samples.

Results

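The 160 kappa light chain variable (Igkv) genes were followed in B cells sorted from the hearts of C57BL6/J mice at 2 weeks (neonatal, given as 15 days in the title of the sample) and 8 weeks of age (adult). The rows are all of those, among 31053 gene rows, whose symbol begins with Igkv, and their unique molecular identifiers (UMIs, each standing for 1 captured mRNA molecule) were summed over droplets with at least 2000 gene UMIs, at most 10% mitochondrial UMIs and at least 1 UMI of Cd79a, a subunit of the B cell receptor. This left 2077 neonatal and 3611 adult cells. Each age was 1 droplet library from 6 mice, processed as 2 tubes of 3 hearts, and no mouse can be told from another. The neonatal mice were of both sexes and the adult mice male, so age, sex and library cannot be told apart. The labels name no transgene or treatment in either group, and the same digestion and sorting day served both. Since each age is a lone library, differences between the ages carry no p-value. The 95% intervals cover counting error only, and each UMI is a counted molecule, not an independent mouse.

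In a developing B cell, recombination joins 1 V gene to 1 of the J segments beside the constant gene Igkc, and the V gene chosen makes up most of the antigen-binding face of the light chain. V genes on the same strand as Igkc are joined by deletion of the DNA in between, and those on the opposite strand by inversion. A mature B cell is therefore expected to show 1 productive V gene, although a second, unused rearrangement may also be transcribed. B1 cells, an innate-like lineage laid down early in life, are known for repeated pairs such as Igkv14-126 with Ighv11-2 and Igkv4-91 with Ighv12-3, which bind phosphatidylcholine. The libraries were read from the 3′ end of the mRNA, near the end of Igkc, so the V part of a kappa mRNA is seen rarely.

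All 160 rows were found by identifier in the GENCODE M21 annotation of GRCm38, 100 as V genes and 60 as V pseudogenes, in 20 families. They lie on chromosome 6 between 67555497 and 70704177, upstream of Igkc at chr6:70726435-70726966 on the plus strand. The V exons of a few genes that the results turn on are shown here to let their ends be compared. Each line holds the last 50 bases of the germline V exon, 5′ to 3′ in the direction of transcription, and capitals mark the bases after the conserved cysteine codon, which begin the third complementarity-determining region. The family 12 genes Igkv12-44, Igkv12-46 and Igkv12-89 come first, followed by the widely used genes of family 1, then Igkv6-17, the textbook B1 genes Igkv14-126 and Igkv4-91, and Igkv2-109 beside the pseudogene Igkv2-107, which has no annotated reading frame and hence no capitals.
Igkv12-44, chr6:69814631-69814680, minus strand: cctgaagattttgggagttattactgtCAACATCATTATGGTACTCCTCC
Igkv12-46, chr6:69764523-69764572, minus strand: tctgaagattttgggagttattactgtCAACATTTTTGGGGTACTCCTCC
Igkv12-89, chr6:68834846-68834895, minus strand: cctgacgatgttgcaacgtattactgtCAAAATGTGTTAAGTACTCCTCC
Igkv1-110, chr6:68271218-68271267, plus strand: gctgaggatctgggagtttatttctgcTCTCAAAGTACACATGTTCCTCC
Igkv1-117, chr6:68121778-68121827, plus strand: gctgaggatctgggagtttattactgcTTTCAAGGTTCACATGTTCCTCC
Igkv1-135, chr6:67610459-67610508, plus strand: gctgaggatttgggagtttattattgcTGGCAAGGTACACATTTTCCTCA
Igkv6-17, chr6:70371944-70371993, plus strand: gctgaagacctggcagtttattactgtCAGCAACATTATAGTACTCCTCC
Igkv14-126, chr6:67896593-67896642, plus strand: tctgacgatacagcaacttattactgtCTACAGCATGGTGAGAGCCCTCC
Igkv4-91, chr6:68768555-68768604, minus strand: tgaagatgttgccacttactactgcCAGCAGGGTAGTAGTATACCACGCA
Igkv2-109, chr6:68303109-68303158, plus strand: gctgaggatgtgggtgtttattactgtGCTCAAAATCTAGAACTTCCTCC
Igkv2-107, chr6:68326703-68326752, plus strand: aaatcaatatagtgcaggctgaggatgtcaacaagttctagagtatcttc
The sequences are germline reference sequences from GENCODE M21, not reads of these cells.

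The neonatal cells held 16403180 gene UMIs and the adult cells 34623240, with a median of 6000 and 6131 per cell. Each of 7 B cell markers had a UMI in at least 80.6% of neonatal and 72.5% of adult cells. Scaled to 1000000 gene UMIs per library (CPM), the 6 T cell genes summed to 7.93 and 9.07, with Cd4 at 0 in the neonatal library, the 4 cardiomyocyte genes to 1.52 and 1.73, and the 6 macrophage genes to 90.4 and 16.3. The 5 genes of red blood cell precursors summed to 7.62 and 4.97, and the 4 endothelium genes to 139 and 117. Of the endothelium genes, Pecam1 had a UMI in 55.6% of neonatal and 51.1% of adult cells, and Kdr in 0.048% and 0%. The part of other cell types in the results was not tested. 2 barcodes were cells in both libraries and held 10 neonatal and 0 adult V UMIs.

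Kappa V mRNA differed little in level between the ages and was read in a minority of cells. The V rows held 1439 UMIs in the neonatal library, or 87.7 CPM (83.3 to 92.4), and 2829 UMIs in the adult library, or 81.7 CPM (78.7 to 84.8). The log2 ratio of adult over neonatal was -0.10 (-0.19 to -0.01). The median over the 10703 genes with at least 50 UMIs was -0.13, so that relative to the typical gene the ratio was 0.03 and its direction turned. Igkc itself stood at 9817 and 9990 CPM. For each 100 Igkc UMIs there were 0.894 V UMIs in neonatal and 0.818 in adult cells. A V UMI was present in 884 neonatal cells, 42.6% (40.4 to 44.7), and in 1498 adult cells, 41.5% (39.9 to 43.1). Most of these cells held a lone V UMI: 568 neonatal and 888 adult cells had exactly 1, 205 and 339 had exactly 2, and 111 and 271 had at least 3. At this depth, a cell without a V UMI is not shown to lack a kappa chain.

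V UMIs were found more often in cells with more Igkc. Among cells with 10 to 50 Igkc UMIs (the upper end of each class not included), 29.7% of neonatal and 25.3% of adult cells held a V UMI, and among cells with 200 to 1000 Igkc UMIs the shares were 88.3% and 81.2%. In between, at 100 to 200 Igkc UMIs, they were 63.9% and 63.4%. Of cells with at least 1000 Igkc UMIs, there were 3 neonatal and 12 adult, and they alone held 65 and 264 V UMIs, which is 4.52% and 9.33% of the total. Near-empty droplets, those of ranks 45000 to 90000 by UMIs, held V mRNA at 67.2 CPM (neonatal library) and 74.1 CPM (adult library). From their mean size, free RNA would account for about 7.80 of the neonatal and 24.6 of the adult V UMIs in cells.

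Use was spread over many V genes, with a small group in front that was nearly the same at both ages. V UMIs fell on 95 rows among neonatal and 104 rows among adult cells, and 87 rows were common to both. Of the 48 rows without a UMI in either library, 42 were pseudogenes and 6 were annotated as V genes. The cells were counted for each V gene, since the many UMIs of a single cell would otherwise weigh on a gene. V genes were compared as numbers of cells and not per length, and the V exons of the annotated genes among the 41 most used rows ran from 298 to 316 bases. Igkv12-44 was found in 54 neonatal cells (2.60%) and 153 adult cells (4.24%) and led in the adult library. Igkv1-110 and Igkv12-89 led in the neonatal library with 64 cells each (3.08%), and they were found in 116 (3.21%) and 73 (2.02%) adult cells. Igkv12-46 was found in 60 and 101 cells, and Igkv1-117 in 55 and 109. Igkv1-135, close to the far end of the locus, was found in 62 and 85 cells. The next in order were Igkv19-93 with 53 and 94 cells, Igkv10-96 with 43 and 83, and Igkv2-109 with 54 and 60. These 9 genes held the first 9 places in both libraries, and Igkv14-111, next by its mean share, was found in 27 and 45 cells. Neighbours among the first 9 mostly overlapped in their intervals. Of the 15 most used V genes of each library, 13 were the same.

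**Figure D1:**
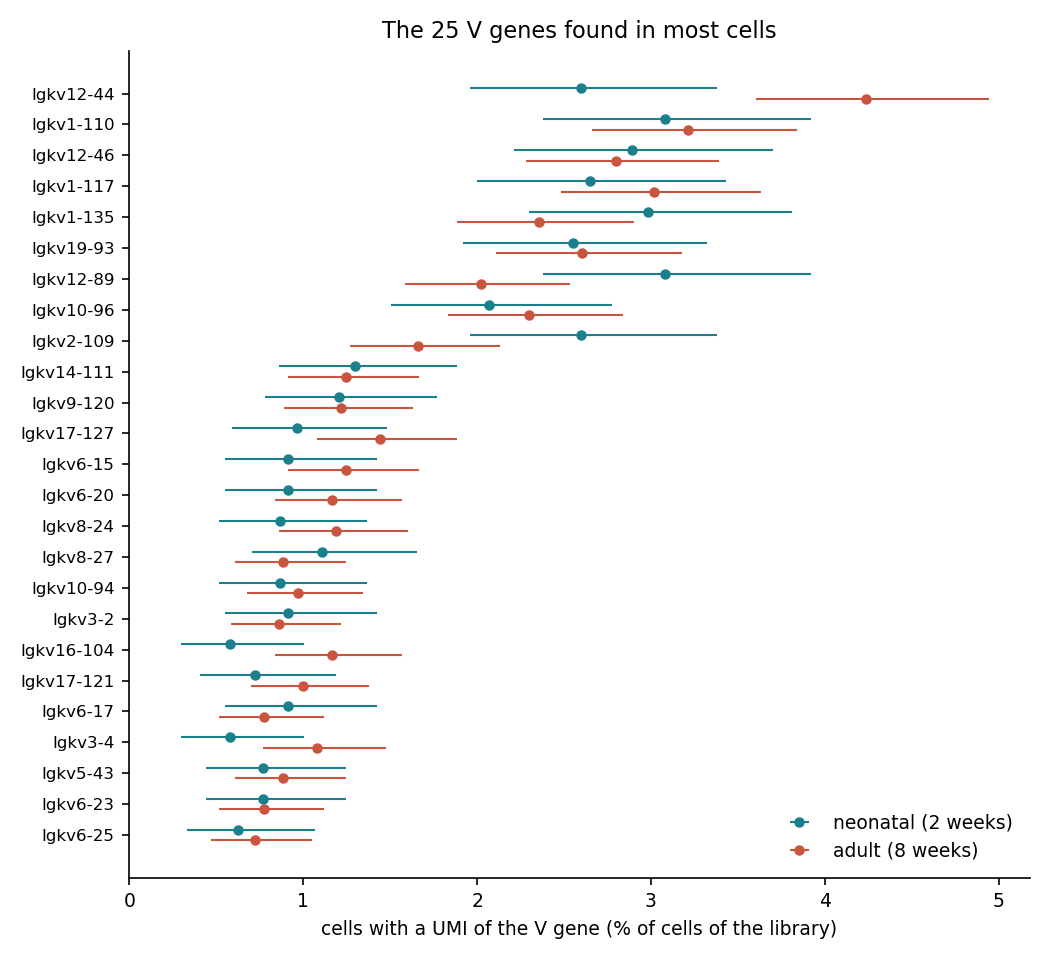
Share of cells with a UMI, in percent of the cells of a library, for the 25 V genes with the highest mean over both libraries. Points are the neonatal (blue-green) and adult (red) libraries and bars exact 95% counting intervals. The first 9 genes are the same at both ages, and Igkv12-44 at 4.24% of adult cells lies furthest to the right.

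The order of V genes was alike at both ages, and the interval excluded 0 for few single genes. Over the 160 rows, the shares of cells in the libraries had a Pearson r of 0.944 and a Spearman rho of 0.890, given as a description since the rows share libraries and depth. Of the 41 V rows found in at least 20 cells, 24 had a higher share in adult cells and 17 in neonatal cells, with log2 ratios from -0.91 to 1.05. The interval lay above 0 for 2 and below 0 for 2 of them. The same count was not made over all genes, so whether it differs from that of other genes is not known. Igkv12-44 was higher in the adult library by a log2 ratio of 0.70 (0.25 to 1.18). By the planned measure given below, its share was instead higher in the neonatal library, on 7 cells in each. Igkv16-104, with 12 neonatal and 42 adult cells, was higher by 1.01 (0.06 to 2.07). In near-empty droplets, it had 1 UMI in the neonatal library (0.592% of V UMIs) and 25 in the adult library (8.14%). The part of free RNA in its ratio was not tested. Igkv12-89 was lower in the adult library, at -0.61 (-1.11 to -0.10), as was Igkv2-109 at -0.65 (-1.20 to -0.09).

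The ratios were also taken within bands of cell size. The excess of Igkv12-44 in the adult library lay in its largest cells: among cells with at least 8000 UMIs, it was found in 18 of 546 neonatal cells (3.30%) and 109 of 1394 adult cells (7.82%), a log2 ratio of 1.25 (0.52 to 2.05). Among cells with 4000 to 8000 UMIs, it was found in 33 of 1407 (2.35%) and 30 of 1489 (2.01%), a log2 ratio of -0.22 (-0.98 to 0.54). With each cell thinned to 2000 UMIs, the expected shares of cells were 0.968% and 1.11%, a log2 ratio of 0.20, and in a single random thinning the ratio was -0.16. Igkv12-89 showed the reverse, with its lower adult share in smaller cells. It was found in 37 of the 1407 neonatal cells with 4000 to 8000 UMIs (2.63%) and in 17 of the 1489 adult cells (1.14%), a log2 ratio of -1.20 (-2.12 to -0.34). Among cells with at least 8000 UMIs, its ratio was -0.18 (-0.91 to 0.60), and in expectation at 2000 UMIs it was -1.24. Igkv2-109 was lower in the adult library in both of these bands, and at -0.90 in expectation at 2000 UMIs. Its ratio was -1.025 (-2.115 to -0.004) at 4000 to 8000 UMIs and -0.70 (-1.44 to 0.07) at 8000 and more, where the interval included 0. For Igkv16-104, the ratios in these bands were 0.92 (-0.76 to 2.82) and 0.70 (-0.52 to 2.13), and both intervals included 0.

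Counted by UMIs instead, 27 V rows had at least 50 UMIs in all, and 2 were at least 2-fold higher in the adult library, where 3.25% of all genes were, and 1 in the neonatal library, where 3.96% were. The pair of adult rows was Igkv16-104 with 17 and 110 UMIs and Igkv5-39 with 9 and 64. A single adult cell held 50 UMIs of Igkv16-104 and 36 of Igkv5-39. The neonatal row was Igkv8-30 with 63 and 8 UMIs, and 2 neonatal cells held 32 and 26 of them. Without the cells of at least 1000 Igkc UMIs, the log2 ratios of these rows went from 1.62 to 0.75 (-0.04 to 1.62) for Igkv16-104, from 1.75 to 0.57 (-0.55 to 1.84) for Igkv5-39 and from -4.06 to -0.39 (-2.18 to 1.57) for Igkv8-30, so that 1 or 2 cells carried each call. Without those cells, however, Igkv8-28 stood past 2-fold toward the neonatal library, at -1.07 (-2.13 to -0.007) with 17 neonatal and 17 adult UMIs. It was then under the limit of 50 UMIs in all, so this is not a call by the rule used here. With all cells, the median over the 27 rows was -0.12, beside -0.13 over all genes.

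The spread over V genes was about as even at both ages, with intervals that overlapped. Counting each V gene once per cell in which it had a UMI (a hit), the neonatal library had 1139 hits and the adult library 2082. Pielou evenness, which is 1 when all V genes seen are equally used, was 0.863 (0.850 to 0.876) in neonatal and 0.853 (0.844 to 0.863) in adult cells. The inverse Simpson number, the number of equally used V genes that would give the same chance of drawing a pair alike, was 35.8 (33.0 to 39.1) and 36.1 (33.9 to 38.6). At an equal number of 1139 hits, 95 neonatal rows were seen and 96.0 adult rows expected. The 12 leading V rows held at least 50% of the neonatal hits, and 13 were needed in the adult library. By family, family 12 took 17.2% and 17.4% of hits, family 1 took 16.9% and 16.2%, and family 4, with the most members, took 9.92% and 7.93%. Family 2 was lower in the adult library, 6.94% against 4.95%, a log2 ratio of -0.49 (-0.92 to -0.05), and family 3 higher, 5.27% against 7.16%, at 0.44 (0.00 to 0.90). For the other families with a hit in both libraries, the interval included 0. Pseudogenes took 2.55% and 2.21% of hits.

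A share of 1 V gene per cell was planned as the measure of use, with cells that had at least 3 V UMIs and at least 80% of them in 1 V gene. Only 24 of 111 neonatal cells, 21.6% (14.4 to 30.4), and 59 of 271 adult cells, 21.8% (17.0 to 27.2), met it. These cells fell on 15 and 27 V genes. Igkv12-44 led with 7 cells in each library, followed by Igkv6-15 with 1 and 7, Igkv1-135 with 1 and 5 and Igkv3-2 with 0 and 6. Over the 24 and 59 cells, the inverse Simpson number was 11.5 and 21.1, the former with an interval from 5.76 to 2963. No V gene reached 20 such cells over both libraries, so no ratios between ages were named from them, and the counts of cells with a UMI were used.

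The UMIs within a cell nonetheless agreed far more often than UMIs of different cells. Among cells with exactly 2 V UMIs, both fell on the same V gene in 94 of 205 neonatal cells, 45.9% (38.9 to 52.9), and in 158 of 339 adult cells, 46.6% (41.2 to 52.1). For a pair of UMIs taken from different cells, the share was 2.71% and 2.61%. Among the 68 neonatal cells with exactly 3 V UMIs, 16 had 1 V gene, 40 had 2 and 12 had 3. Among the 145 adult cells, the numbers were 35, 64 and 46. Where the pair differed, the V exons of the genes were 64.2% and 63.9% identical at the median and none of the 111 and 181 pairs was at least 97% identical, and 15 and 19 of the pairs were of the same family. When the cells of each library were put into 3 groups of equal size by gene UMIs, adult pairs were alike in 59.3% (45.7 to 71.9) of the smallest cells, 61.3% (49.7 to 71.9) of the middle group and 37.0% (30.3 to 44.1) of the largest cells. Neonatal pairs were alike in 43.6%, 56.1% and 39.3%, with intervals that overlapped. Adult cells with a pair alike had a median of 8618 gene UMIs and those with a pair unlike 12985. The part of depth in this was not tested.

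**Figure D2:**
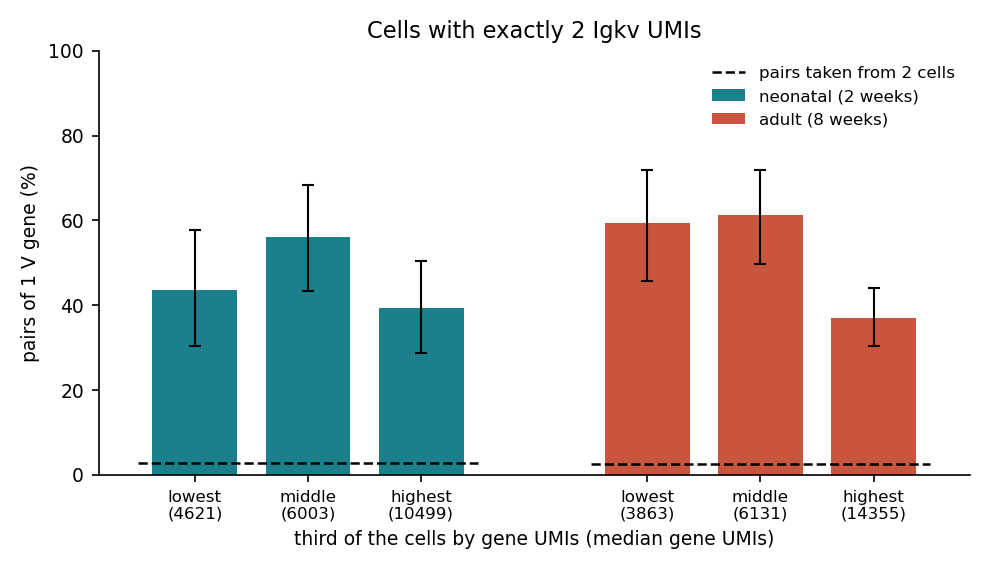
Share of cells with exactly 2 V UMIs in which both are of the same V gene, in percent, for 3 groups of equal size of the cells of each library by gene UMIs, with the median gene UMIs of each group in brackets. Bars are the shares, whiskers exact 95% counting intervals, and the dashed lines, at 2.71% and 2.61%, are the share for UMIs of different cells. All bars stand far above the dashed lines, and the largest adult cells have the lowest bar at 37.0%.

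The V genes differed in how often they repeated within a cell. For each V gene, the cells were taken that held a UMI of it and at least 2 V UMIs of any kind, leaving out cells with at least 1000 Igkc UMIs, and the share with at least 2 UMIs of that gene was measured. Over all rows, this share was 34.4% in neonatal and 32.9% in adult cells. For the 41 V rows found in at least 20 cells, it ran from 0% to 68.8% with a median of 36.8%, and it was below 25% for 11 rows and at least 50% for 8. Igkv6-17 repeated in 4 of 5 neonatal and 7 of 11 adult cells. Igkv14-126 repeated in 2 of 5 and 10 of 15, and Igkv1-117 in 14 of 27 and 34 of 63. Igkv1-135 repeated in 17 of 28 and 18 of 41 cells, and Igkv12-44 in 15 of 28 and 38 of 97. Each of these shares is among cells with at least 2 V UMIs. Over all cells with a UMI of the gene, in both libraries and with no limit on Igkc, Igkv12-44 repeated in 54 of 207. Igkv1-117 repeated in 48 of 164 such cells.

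At the other end, Igkv12-89 repeated in only 4 of 32 neonatal and 6 of 50 adult cells, which is 12.2% (6.01 to 21.3) over both libraries. Igkv2-109 repeated in 2 of 30 and 5 of 41, or 9.86% (4.06 to 19.3), and the pseudogene Igkv2-107 in 0 of 8 and 0 of 9. Since these 17 cells are few, its interval reached 19.5%. Igkv1-110, second of all V genes by cells, repeated in 9 of 41 and 10 of 58, or 19.2% (12.0 to 28.3). Its exon was 96.8% identical to that of Igkv1-117, which repeated in 53.3% (42.5 to 63.9). Igkv12-89 and Igkv1-110 were thus among the V genes found in most cells and rarely as more than 1 UMI. Over the 31 rows with at least 5 such cells in each library, the shares at both ages had a Pearson r of 0.693 and a Spearman rho of 0.599. Over the 41 rows, the share had a Spearman rho of -0.12 with the median gene UMIs of the cells of a gene, 0.17 with the number of cells and 0.16 with the longest run of A in its transcript.

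**Figure D3:**
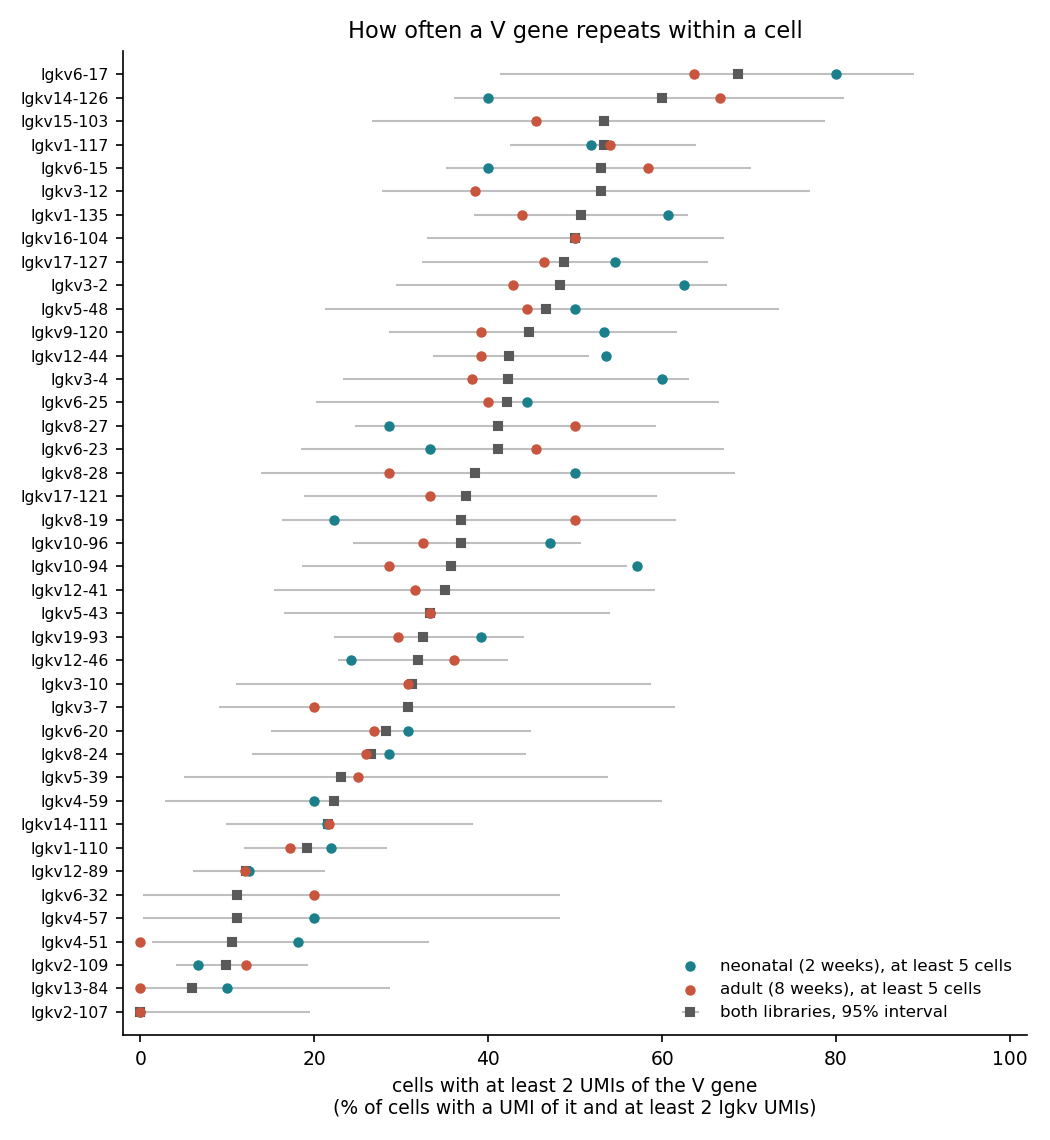
Share of cells in which a V gene had at least 2 UMIs, in percent of cells with a UMI of it and at least 2 V UMIs, for the 41 V rows found in at least 20 cells. Squares are both libraries together with exact 95% counting intervals, and circles the neonatal (blue-green) and adult (red) library where at least 5 cells were available. Igkv2-107, Igkv2-109 and Igkv12-89 are among the rows at the bottom, none above 12.2%, and Igkv6-17 at the top at 68.8%.

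Cells in which lambda constant mRNA outweighed Igkc held some V mRNA, and Igkv12-89 took more of its hits than in other cells at both ages. More UMIs of Iglc1, Iglc2 and Iglc3 than of Igkc were found in 326 neonatal and 289 adult cells, with a median of 9 and 6 Igkc UMIs. A V UMI was present in 27.6% and 24.9% of them, against 45.3% and 42.9% of the other cells. V mRNA stood at 45.7 and 39.7 CPM in them and at 95.7 and 85.4 CPM in the others. Igkv12-89 took 13 of the 108 neonatal hits in the cells with lambda excess (12.0%) and 4.95% of the hits in other cells, a log2 ratio of 1.28 (0.28 to 2.18). In the adult library, it took 8 of 96 (8.33%) against 3.27%, at 1.35 (0.08 to 2.41). Igkv2-109 took 6.48% against 4.56% of neonatal hits, at 0.51 (-0.88 to 1.66), and 7.29% against 2.67% of adult hits, at 1.45 (0.07 to 2.59). Igkv1-117 was nearly absent from them, with 1 hit in each library, and over both libraries it took 0.980% against 5.37%, at -2.45 (-5.51 to -0.58). Igkv1-110, which also rarely repeated, took 4.63% against 5.72% of neonatal and 3.13% against 5.69% of adult hits, at -0.31 and -0.86, with intervals that included 0. Igkv6-17 had no hit there among 47 cells with a UMI of it. It was not alone: Igkv8-27, Igkv10-94 and Igkv3-4 had none either, among 55, 53 and 51 cells. These 3 genes repeated in 41.2%, 35.7% and 42.3% of cells. The 11 rows that repeated in under 25% of cells took 34.3% of neonatal hits in cells with lambda excess and 24.3% in the others, and among adult hits they took 24.0% and 19.0%, with intervals that overlapped at both ages. In near-empty droplets, they took 24.3% and 18.9% of V UMIs. These 11 rows were chosen on the same cells.

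V UMIs were also found in cells with few Igkc UMIs. Among cells with under 10 Igkc UMIs, 36 of 174 neonatal cells (20.7%) and 19 of 185 adult cells (10.3%) held a V UMI. Most of them were also cells with lambda excess, 167 of the 174 and 176 of the 185. Those held 42 of the 44 neonatal and 21 of the 25 adult V UMIs of this class. A neonatal cell with 1 Igkc and 5 lambda constant UMIs held 5 V UMIs, all of Igkv1-135. Of 24 neonatal cells with a UMI of Rag1, the recombinase subunit, 14 held a V UMI, 58.3% (36.6 to 77.9), against 42.4% of cells without one. The cells with Rag1 were larger, with a median of 7653.5 gene UMIs against 5990, and the part of size was not tested. Only 5 adult cells had a Rag1 UMI and 2 of them a V UMI.

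The highest V counts of both libraries were found in cells rich in Igkc and in Jchain, the joining chain of secreted antibodies, although 7 of the 10 neonatal cells with the most V UMIs had no Jchain UMI. In the neonatal library, 2 cells with 8661 and 7053 Igkc UMIs and 531 and 775 Jchain UMIs held 32 and 26 UMIs of the same gene, Igkv8-30, with 2 V UMIs of other genes in the second cell. Another neonatal cell, with 87 Igkc and 0 Jchain UMIs, held 10 UMIs of Igkv6-15 among 12. In the adult library, a cell with 9421 Igkc UMIs held 50 UMIs of Igkv16-104 and 36 of Igkv5-39, whose exons are 67.0% identical. Another held 17 UMIs of Igkv10-95 and 15 of Igkv4-57-1, also unlike at 65.5%. Yet another held 20 UMIs of Igkv4-57-1 alone, and further cells held 15 of Igkv8-28 alone and 11 of Igkv3-2 alone. Large V counts thus fell on 1 gene in some cells and nearly evenly on a pair of unlike genes in others.

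In 1 adult cell with 8249 Igkc UMIs, the counts were split over near relatives, with 39 UMIs of Igkv4-70, 21 of Igkv4-69, 6 of Igkv3-2 and 1 of Igkv4-78. The exons of Igkv4-70 and Igkv4-69, shown whole here with the 13 of 299 bases at which they differ in capitals, are 95.7% identical, and their last 64 bases are the same. Only a read no longer than that end can lie wholly within it. Such a read would match both genes and be left out where only reads assigned to 1 gene are counted. The longest stretch without a difference is 77 bases, shorter than the 91-base stretches compared below. Whether reads of this pair were left out was not measured.
Igkv4-70, chr6:69267888-69268186, minus strand: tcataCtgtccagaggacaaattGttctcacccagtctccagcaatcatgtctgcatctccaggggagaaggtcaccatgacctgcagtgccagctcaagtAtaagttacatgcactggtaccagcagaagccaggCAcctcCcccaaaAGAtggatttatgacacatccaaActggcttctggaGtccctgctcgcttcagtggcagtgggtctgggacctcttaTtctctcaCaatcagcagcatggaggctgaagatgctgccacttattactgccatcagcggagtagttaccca
Igkv4-69, chr6:69283794-69284092, minus strand: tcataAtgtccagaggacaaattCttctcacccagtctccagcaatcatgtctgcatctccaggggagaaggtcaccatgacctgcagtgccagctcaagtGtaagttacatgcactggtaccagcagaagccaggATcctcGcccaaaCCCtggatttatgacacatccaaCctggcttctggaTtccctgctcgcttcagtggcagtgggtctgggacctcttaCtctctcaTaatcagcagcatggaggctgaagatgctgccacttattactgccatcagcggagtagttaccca
Among the 160 rows, 9 pairs were at least 97% identical, with Igkv6-20 and Igkv6-29, Igkv5-43 and Igkv5-45, and Igkv3-10 and Igkv3-5 among them. These genes share from 31.4% to 49.5% of their 91-base stretches with another row, and their counts are uncertain to that extent. The 39 annotated V genes that share a stretch of 91 bases with another row were found in a median of 5.0 neonatal and 10.0 adult cells, and the 61 without one in 5.0 and 9.0.

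Cells with a UMI of at least 3 of 6 genes of B1 cells were then compared with the rest. The genes were the transcription factors Bhlhe41 and Zbtb32, the checkpoint receptor Ctla4, the tetraspanin Cd9, the calcium-binding protein S100a6 and the basement membrane protein Nid1. They numbered 177 neonatal cells (8.52%) and 580 adult cells (16.1%). These cells were much larger, with a median of 15881 and 16550 UMIs against 5822 and 5150, and a larger cell shows a UMI of any gene more often. V mRNA was lower relative to all mRNA in them, at 63.9 CPM (55.8 to 72.7) against 94.3 (89.1 to 99.8) in the neonatal and 68.0 (63.5 to 72.7) against 89.7 (85.7 to 93.7) in the adult library. Among cells with at least 8000 UMIs, the levels were 63.8 against 83.4 CPM and 68.2 against 93.7 CPM. In the adult library, 5 of the other cells had at least 1000 Igkc UMIs and held 220 of their 1966 V UMIs. These 5 cells all had at least 8000 gene UMIs. Without cells of at least 1000 Igkc UMIs, the levels over all sizes were 57.1 against 92.2 CPM (neonatal) and 67.6 against 80.1 CPM (adult). The 93.7 CPM of the adult band includes their 220 V UMIs, so its difference rests in part on these 5 cells. The band was not measured without them, so the size of that part is not given. A V UMI was nonetheless found in more of the cells with B1 genes, 56.5% against 41.3% and 61.7% against 37.6%.

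In the adult library, a few V genes took more of the hits in cells with B1 genes than in other cells. Their inverse Simpson number was 27.7 (24.5 to 32.0) against 39.0 (36.3 to 42.2) in the other adult cells, and 81 V rows were seen against 86.8 expected at the same 635 hits. Pielou evenness was 0.848 (0.829 to 0.867) and 0.868 (0.857 to 0.879), which overlap. Among cells with at least 8000 UMIs, the inverse Simpson numbers were 27.7 (24.5 to 32.0) and 37.7 (33.9 to 42.6). Neonatal cells gave 31.6 (24.4 to 44.8) and 35.7 (32.7 to 39.2), which overlap. Of adult cells with exactly 2 V UMIs, the pair was alike in 35.3% (26.1 to 45.4) of those with B1 genes and 51.5% (44.9 to 58.0) of the others. Among adult cells with at least 8000 UMIs, the shares were 35.0% (25.7 to 45.2) and 43.4% (34.5 to 52.7). The intervals overlapped in both comparisons, over all cell sizes only from 44.9 to 45.4, and the difference was not tested. Neonatal pairs were alike in 41.7% and 46.4% over all cells. Only 3 neonatal and 19 adult cells with B1 genes had 1 dominant V gene by the planned measure.

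Igkv2-107 and the phosphatidylcholine gene Igkv14-126 had the highest ratios among V rows with at least 5 hits in adult cells with B1 genes. The ratios were taken as shares of hits so that the total of V hits drops out. Of 36 V rows with at least 5 hits in these adult cells, 19 had a higher and 17 a lower share than in the other cells, and the interval lay above 0 for 7 and below 0 for 2. Here too, the count was not made over all genes, so whether V genes differ from other genes in it is not known. Rows entered only with at least 5 hits in the cells with B1 genes, so rows low there dropped out. Igkv4-59, with 1 hit against 14 (-2.62), and Igkv8-28, with 2 against 14 (-1.62), were left out. The counts of higher and lower rows are shaped by this rule. Igkv14-126 took 12 of 635 hits (1.89%) against 7 of 1447 (0.484%), a log2 ratio of 1.97 (0.50 to 3.55). Among neonatal cells, it took 3 of 158 against 4 of 981, a log2 ratio of 2.22 (-0.55 to 4.78). Igkv4-91 took 6 hits in each class of adult cells, a ratio of 1.19 (-0.72 to 3.09). Igkv2-107, seen as 1 UMI per cell throughout, took 9 hits against 3 in the adult library, a ratio of 2.77 (0.77 to 5.29), and 8 against 4 in the neonatal library, a ratio of 3.63 (1.73 to 5.82). Its cells were large, with a median of 13921 and 26045 UMIs. Among cells with at least 8000 UMIs, its ratio was 1.55 (-0.51 to 4.10) in the adult and 2.24 (0.18 to 4.79) in the neonatal library, and that of Igkv14-126 in the adult library was 1.40 (-0.21 to 3.25).

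More cells lay behind some genes of family 12. Igkv12-44 took 64 hits in adult cells with B1 genes (10.1%) against 89 in the others (6.15%), a log2 ratio of 0.71 (0.23 to 1.19). Igkv12-46 took 46 against 55, at 0.93 (0.33 to 1.52). Igkv12-41, their close relative, took 13 against 12, at 1.30 (0.05 to 2.57). Igkv12-89, also of family 12, took 24 against 49, at 0.16 (-0.61 to 0.89), where the interval included 0. In the neonatal library, Igkv12-44 took 6 hits against 48, at -0.37 (-1.88 to 0.86), and Igkv12-46 took 4 against 56, at -1.17 (-3.10 to 0.26). Igkv1-110 had a higher share in cells with B1 genes at both ages, with 17 hits (10.8%) against 47 (4.79%) in the neonatal library, at 1.17 (0.27 to 1.99), and 48 (7.56%) against 68 (4.70%) in the adult library, at 0.69 (0.12 to 1.24). Igkv2-109 took 30 hits in each class of adult cells, at 1.19 (0.41 to 1.97), and 11 against 43 in the neonatal library, at 0.67 (-0.44 to 1.65). On the low side in the adult library stood Igkv10-96 with 14 hits against 69, at -1.11 (-2.06 to -0.27), and Igkv9-120 with 7 against 37, at -1.21 (-2.62 to -0.03).

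Restricting the comparison to adult cells with at least 8000 UMIs left the direction of these ratios as it was. There, Igkv12-46 stood at 1.17 (0.40 to 1.97), Igkv2-109 at 1.41 (0.39 to 2.51), Igkv12-44 at 0.59 (0.02 to 1.17) and Igkv10-96 at -1.10 (-2.12 to -0.16). Neonatal Igkv1-110 stood at 0.39 (-0.61 to 1.36) among such cells, so its interval included 0 as well. In the adult library, the intervals of Igkv1-110, Igkv12-41 and Igkv9-120 then included 0, at 0.59 (-0.07 to 1.26), 1.03 (-0.40 to 2.59) and -1.15 (-2.66 to 0.20). Cells with B1 genes were still larger within this band, with a median of 16802 against 11394 UMIs. With the 6 genes instead counted after each cell was thinned to 2000 UMIs, few cells qualified, and the ratio turned for Igkv12-46 in the adult library, at -0.10 with 2 hits, and for Igkv1-110 in the neonatal library, at -0.02 with 1 hit. Igkv14-126 then had 3 adult hits and a ratio of 3.12 (0.70 to 4.92), and Igkv12-44 had 4 and a ratio of 0.31 (-1.58 to 1.70).

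**Figure D4:**
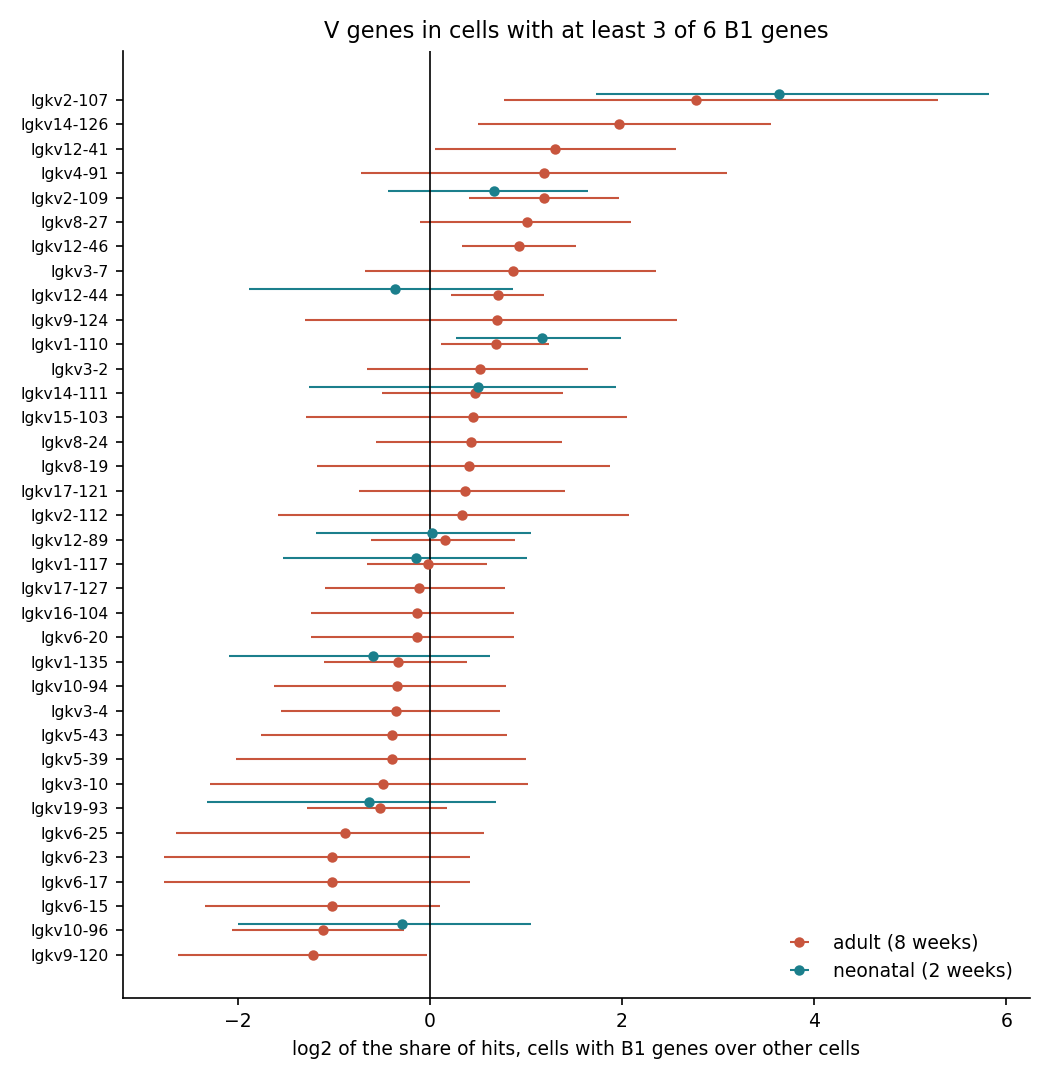
Log2 ratio of the share of hits in cells with at least 3 of 6 B1 genes over the share in other cells, for the 36 V rows with at least 5 hits in such adult cells, with exact 95% counting intervals. Red points are the adult library, and blue-green points the neonatal library where at least 5 hits were available. Rows with fewer hits in the adult cells with B1 genes are not shown, which leaves out rows low there. Igkv2-107 lies furthest to the right in both libraries, and Igkv12-44 lies at 0.71 for the adult and -0.37 for the neonatal library.

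The textbook partners were found together in single cells. Of the 19 adult cells with a UMI of Igkv14-126, 3 also held a UMI of Ighv11-2, 15.8% (3.38 to 39.6), against 0.251% (0.115 to 0.475) of the other adult cells, and all 3 were cells with B1 genes. Of the neonatal cells, 1 of 7 did, against 0.193% of the others, and that cell too had B1 genes. However, all 5 neonatal and 10 of the 12 adult cells with an Ighv11-2 UMI had B1 genes. The B1 genes of the cells with both thus say little further about the pairing. Adult cells with Igkv14-126 were also large, with a median of 16885 gene UMIs against 6131 over all adult cells. The other cells were matched neither for size nor for B1 genes. Igkv4-91 was found with Ighv12-3 in 1 of 12 adult cells, also a cell with B1 genes, against 0.167% of the others, and in 0 of 5 neonatal cells, with an exact upper limit of 52.2%. Of the 7 adult cells with an Ighv12-3 UMI, 5 had B1 genes. Igkv7-33, which with Ighv7-1 forms a phosphorylcholine-binding pair, was found in 1 adult cell and 0 neonatal cells. Among other V genes known from B1 repertoires, Igkv3-1 was found in 1 and 7 cells and Igkv2-137 in 6 and 13.

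Use was much alike at both ages along the locus. In 4 blocks of 40 rows each, counted from the J segments, the nearest took 22.9% of neonatal and 24.8% of adult hits, the next 21.2% and 21.4%, the third 21.8% of neonatal hits and 416 of the 2082 adult hits, and the farthest 34.2% and 33.8%. The ratios of adult over neonatal had intervals that included 0 in all 4 blocks. The nearest block held 34 annotated V genes and each of the others 22, so per gene the nearest was used least. Over the 100 annotated V genes, adult hits had a Spearman rho of 0.015 with the place along the locus. Igkv12-44 and Igkv12-46 led the next block, Igkv19-93, Igkv12-89 and Igkv10-96 the third, and Igkv1-110, Igkv1-117 and Igkv1-135 the farthest. The 75 rows on the strand of Igkc took 45.0% of neonatal and 45.1% of adult hits, and the 85 rows on the opposite strand the rest. Of these rows, 38 and 62 were annotated V genes, so per gene the strand of Igkc was used more.

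**Figure D5:**
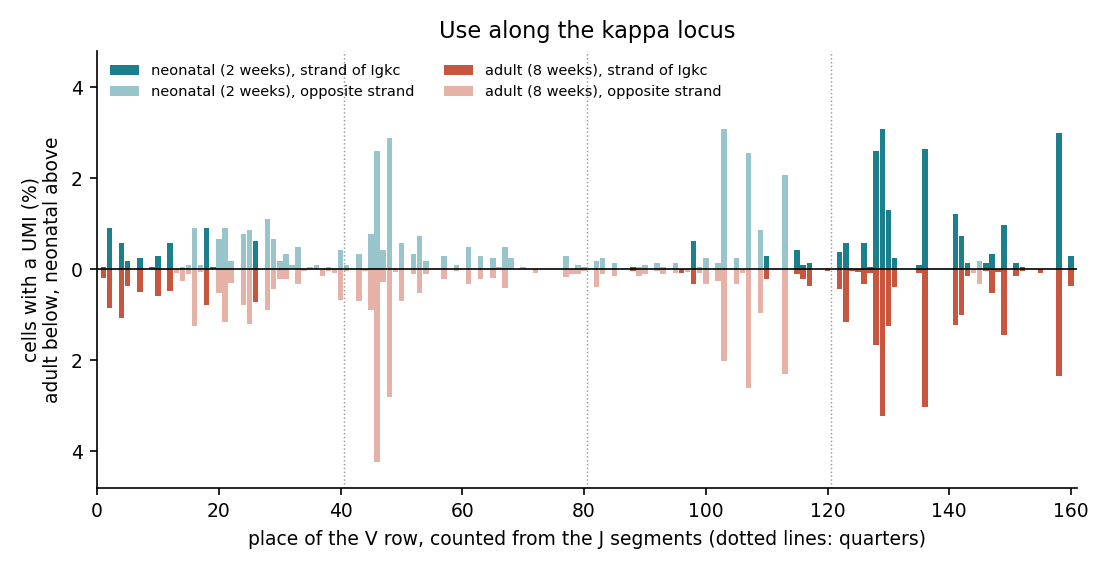
Share of cells with a UMI, in percent, of each of the 160 V rows in their order along the locus counted from the J segments, with the neonatal library above and the adult library below the axis. Full colour marks rows on the strand of Igkc, pale colour the opposite strand, and dotted lines the 4 blocks. The same peaks stand at the same places at both ages, with Igkv12-44 reaching 4.24% in the adult library.

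Genes that make and join the kappa chain were measured in the same cells, and the counts past 2-fold are to be read beside 3.25% of all genes toward the adult and 3.96% toward the neonatal library. Of 12 genes of V(D)J recombination and end joining, 10 had at least 50 UMIs, 0 were at least 2-fold higher in the adult library and 1, Rag1, was at least 2-fold higher in the neonatal library, with 51 and 9 UMIs and a log2 ratio of -3.58 (-4.79 to -2.54). Rag2 and Dntt, the transferase that adds bases at the joints, had 0 UMIs in both. Of 10 regulators of the locus, 1 passed 2-fold toward the neonatal library, Irf4 with 192 and 68.0 CPM and a ratio of -1.50 (-1.58 to -1.42), and 0 toward the adult library. Pax5, the B cell identity factor, stood at 258 and 281 CPM. Of the 4 genes listed for the surrogate light chain, Vpreb1 had 7 neonatal and 15 adult UMIs, and Vpreb2 and Igll1 had 0 in both. Only Vpreb3 had at least 50 UMIs, with 381 and 177 CPM and a ratio of -1.11 (-1.16 to -1.05). Its ratio does not speak for the other genes of the list. Of 8 measured genes among the constant, J and lambda V genes, 1 passed 2-fold toward the neonatal library, Iglv2 with 27 and 25 UMIs and a ratio of -1.19 (-2.03 to -0.35), and 0 toward the adult library. The lambda constant gene Iglc1 stood at -0.87 (-0.89 to -0.84) and Igkc at 0.03 (0.02 to 0.03). The J segments Igkj1 to Igkj5 had 0 UMIs, so the J gene joined to a V gene could not be read here.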

How the data were processed

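B cells sorted from hearts were profiled by the 10x Genomics Chromium 3′ v3 chemistry, 1 library per age. The authors aligned reads to mm10 with Cell Ranger (3.0.2 in the file headers) and deposited the UMI counts of all droplets, unnormalized and not filtered for cells. In all, the neonatal library held 26866958 gene UMIs and the adult library 49500780. Cell Ranger counts only reads assigned to 1 gene, so reads that match several V genes are not counted.

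Cells were droplets with at least 2000 gene UMIs, at most 10% mitochondrial UMIs and a Cd79a UMI. No doublet caller was run. Instead, the 5% largest cells were left out as an alternative. Positions, biotypes and V exons came from GENCODE M21 (GRCm38), and identity from global alignment. Intervals were exact at 95% (Clopper-Pearson for cells, Poisson for sums, conditional binomial for ratios); those of evenness used the multinomial variance. Overlap of separate intervals is given as a description and does not show that the values are equal. A hit is a cell with a UMI of a V gene. The planned count of 1 vote per cell, for cells with at least 3 V UMIs and 80% in 1 V gene, left 24 and 59 cells, so hits were used, a choice made after the data were seen.

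The members, lists and marker genes were chosen with earlier results of these data known. Named are the 15 V genes with the highest mean share, the 8 with the largest ratio each way among those in at least 20 cells, those leading or most shifted in cells with B1 genes, and textbook B1 genes. Not all of these are described singly. Genes with extreme repeat shares and the leading V genes of single cells were singled out by their values, and repeat shares, bands of cell size and cells with lambda excess were also added after the data were seen. In simulated data, with 200 of 10703 genes changed in the comparison of CPM between ages, the sign was recovered for 100% of genes changed 2-fold and the interval covered the true ratio for 95.7% of them. The simulated UMIs were drawn as totals per gene, without cells. V UMIs come together in cells, so this coverage does not carry over to intervals on sums of V UMIs.

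Scripts ran in Python 3.11.15 with Biopython 1.88, scipy 1.17.1, pandas 2.3.3, matplotlib 3.10.9 and numpy 2.4.6. Alternatives changed the cell filters, V rows, vote rule, B1 rule and depth.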

Additional observations from a re-analysis of the deposited data

Results flagged for a closer look

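V mRNA was also present outside the cells analysed. In droplets with over 10% mitochondrial UMIs, it stood at 73.6 CPM (neonatal) and 86.1 CPM (adult). In droplets of at least 500 and under 2000 UMIs, it stood at 72.1 and 79.6 CPM, and in near-empty droplets at 67.2 and 74.1 CPM. No control library was available, and each level was above the limit that a count of 0 allows. In the 14 neonatal and 4 adult droplets without a Cd79a UMI that passed the other limits, 0 V UMIs were found, with exact upper limits of 34.0 and 132 CPM.

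2 V genes of family 12 differed in direction between the ages in cells with B1 genes. The log2 ratio of their share of hits over that in other cells was -0.37 for neonatal and 0.71 for adult Igkv12-44, and -1.17 and 0.93 for Igkv12-46. Adult Igkv12-46 turned to -0.10 when the B1 genes were counted after thinning. The difference between the ages was not tested, and the neonatal values rest on 6 and 4 cells.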

How the results depend on the processing

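No paired analysis was possible because each age was 1 library. Of 212 values of comparisons under alternatives, 172 moved by less than their counting interval, 38 by more and 2 turned; of 302 for single V genes, 263, 35 and 4 did. The V level ratio turned to 0.32 at a limit of 5% mitochondrial UMIs, which left 60 and 156 cells, and to 0.030 with median-of-ratios size factors. Igkv12-44, adult over neonatal, turned to -0.16 when each cell was thinned to 2000 UMIs. With B1 genes counted after thinning, neonatal Igkv1-110 turned to -0.017 and adult Igkv12-46 to -0.10, and at 5% mitochondrial UMIs adult Igkv10-96 turned to 2.94.

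Levels in CPM were 165 and 206 at 5% mitochondrial UMIs, 95.4 and 84.9 as a mean over cells, and 75.6 in the adult library without cells of at least 1000 Igkc UMIs. The other values that moved rest mostly on 24 and 59 cells with 1 dominant V gene. The share of such cells was 57.1% and 38.5% at 5% mitochondrial UMIs, 37.3% and 35.6% with at least 2 V UMIs, 42.9% and 28.1% with at least 6, 68.5% and 53.9% with at least 60% in 1 gene, 0% and 42.9% after thinning, and 27.6% in the adult library without the 5% largest cells. The neonatal share of Igkv12-44 went from 29.2% to 0% at 5% mitochondrial UMIs, 11.9% with at least 2 V UMIs, 0% with at least 6, 10.5% with at least 60% in 1 gene, 5.42% of UMIs and 4.74% of hits, and the adult share from 11.9% to 0% at 5% mitochondrial UMIs and after thinning. Adult evenness was 1 at 5% mitochondrial UMIs and after thinning, 0.852 by UMIs and 0.853 by hits. The share of Igkv14-126 and Igkv4-91 in adult cells with B1 genes went from 10.5% to 0% with at least 6 V UMIs. The nearest block of the locus took 75% of neonatal cells at 5% mitochondrial UMIs and 100% with at least 6 V UMIs, and 24.8% of adult hits. The opposite strand took 47.5% of neonatal cells with at least 2 V UMIs and 100% with at least 6, and 80% of adult cells at 5% mitochondrial UMIs and 66.7% after thinning. Adult cells with Igkv14-126 and Ighv11-2 numbered 1 with at least 60% in 1 gene and 3 by hits. Beyond the loss of cells under these settings, the cause was not tested. Thinning left no neonatal cell with 1 dominant V gene and too few hits in cells with B1 genes, as did the limit of 5% mitochondrial UMIs for several V genes, so these gave no value. Leaving out V genes in under 3 such cells gave no neonatal evenness. Depth limits every V gene with few cells.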
